A study of Mus musculus with 12 samples.

Results

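The cytosolic ribosomal protein genes encode the proteins of the ribosomes that translate nuclear-encoded messages in the cytosol. They were chosen by symbol: Rpl or Rps followed by a number with at most a letter as a suffix, Rplp0, Rplp1, Rplp2 and Rpsa, leaving out pseudogenes named with -ps and the Rps6k kinases. Of 54949 features in the count table, 83 had such a symbol, and the 79 with 10 or more counts in at least 6 of 12 libraries are described here. The other 4 were Rpl24 (85 counts over all libraries, 1 library with 10 or more), Rpl32l (112 counts, 4 libraries), Rpl39l (17 counts) and Rpl10l (1 count). The lowest gene inside the limit was Rps10, with 462 counts and at least 10 in every library. By subunit, 44 of the 79 belong to the large subunit, 32 to the small subunit and 3 to the acidic stalk. The annotation gives 77 of them as protein-coding, Rpl6l as a processed pseudogene and Rps4l as a transcribed processed pseudogene.

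Each ribosome holds 1 copy of nearly all of these proteins, and surplus proteins are degraded, so the genes are usually expressed together. Their messages carry a run of pyrimidines at the capped end, the terminal oligopyrimidine (TOP) tract, through which the kinase complex mTORC1 and the RNA-binding protein LARP1 set how strongly they are translated. In the heart, ribosome production is known to rise during hypertrophic growth. Rpl3l is a version of Rpl3 restricted to heart and skeletal muscle.

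The samples were ventricles, with the atria removed, of male wild-type C57BL/6N mice, sequenced as poly-A RNA in 12 libraries. The study set mice given dietary fat and L-NAME (which blocks nitric oxide synthases, 0.5 g/L in the drinking water) for 5 weeks from 8 weeks of age, modelling heart failure in which the ejection fraction is kept (HFpEF), against mice on normal diet and water. For all 12 samples the labels contradict each other: the 6 titled as HFpEF, with fat and L-NAME as treatment, bear con-1 to con-6 as library names, and the 6 titled as control, on normal diet, bear HF-1 to HF-6. Groups are named here by library (con-named, HF-named), and every change is given as HF-named relative to con-named. Which group was treated cannot be told apart from the labels. The design text gives 5 bulk samples per group where the labels hold 6, and no label ties each library to its own mouse. The p-values therefore cover only the spread between these samples, which may be technical.

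Libraries held 14443186 to 22048689 counts. Mitochondrial transcripts took 22.4 ± 1.10% of counts in con-named libraries, against 25.2 ± 1.19% in HF-named ones (SD, n = 6 each). Cardiomyocyte markers were present at a summed 64966 to 73185 CPM (counts scaled to a common library size) in con-named libraries, against 66852 to 73034 CPM in HF-named ones. Of 10 such markers, 5 fell and 1 rose, and none of the marker genes was at 0 in every library. Summed fibroblast markers ran from 648 to 919 and from 571 to 733 CPM, with 2 of 8 lower. Summed endothelial markers ran from 1309 to 1684 and from 1056 to 1643 CPM, with 1 of 8 lower. Macrophage markers ran from 133 to 187 and from 121 to 157 CPM, with 2 of 8 lower, and of 5 erythroid markers 1 was higher. None of 7 mural, 4 lymphocyte or 2 atrial markers tested passed, and the 4 adipocyte markers were under the count filter. Fewer cells of a type and less RNA per cell cannot be told apart in whole tissue, and the part of cell makeup or of the mitochondrial share in the results below was not tested.

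Ribosomal protein transcripts were slightly and broadly lower in the HF-named libraries. Tested by edgeR quasi-likelihood over 15114 genes, with Benjamini-Hochberg adjustment, 27 of the 79 fell, 0 rose and 52 did not pass at 0.05. Over all genes tested, 5.05% fell and 8.28% rose. An unadjusted p under 0.05 was found for 54 of the 79, and for 4328 of all 15114 genes tested. The log2 fold change was negative for 76 of the 79, against 52.7% of all genes. Its median was -0.16, a change of -10.5%, against -0.01 over all genes, and the middle 50% of the 79 lay between -0.21 and -0.12. These are small differences: no called gene fell by more than 0.29 on the log2 scale. In the authors' deposited table, made by their own test, 30 of the 79 were lower and 0 higher at an adjusted p of 0.05, with a median log2 fold change of -0.16, where 1.72% of its genes were lower.

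**Figure D1:**
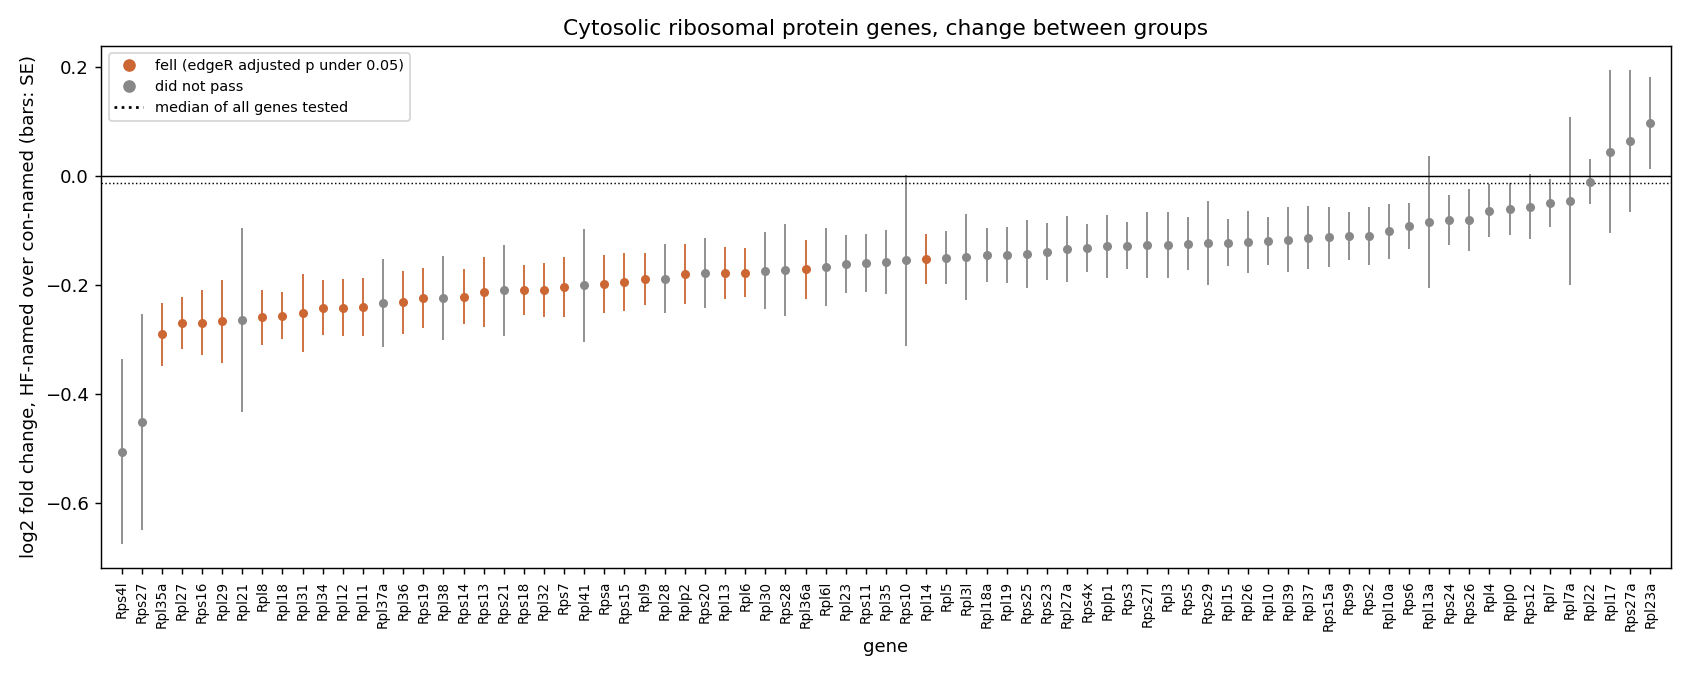
The log2 fold change (HF-named over con-named, vertical axis, bars SE from edgeR) of 77 of the 79 ribosomal protein genes, ordered from lowest to highest, with the 25 of these that fell in orange, the others in grey and the median of all genes tested as a dotted line. Only Rpl17, Rps27a and Rpl23a lie above 0, and the lowest points, Rps4l and Rps27, have the widest bars.

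The same pattern was read from each library. Ribosomal protein genes took 1.14%, 1.17% and 1.31% of counts (lowest, median and highest) in con-named libraries, against 0.909%, 0.9995% and 1.06% in HF-named ones. The groups did not overlap, with means of 1.19 ± 0.0645% and 0.989 ± 0.0593% (SD, n = 6 each). With mitochondrial counts taken out of the total, the shares were 1.53 ± 0.0779% and 1.32 ± 0.0678%, again without overlap. On the scale used for the test, in which library sizes are adjusted by the trimmed mean of M values (TMM), the summed level was 11426 ± 497 CPM in con-named libraries, against 10303 ± 361 CPM in HF-named ones, and all HF-named libraries but 1 lay below the con-named range.

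The libraries of a group were not alike. The number of the 79 genes that lay below their own median over the 12 libraries was 3 to 17 in 5 of the con-named libraries and 53 in con-2. It was 56 to 75 in 5 of the HF-named libraries and 44 in HF-6. The library with the most genes low was HF-4 (75), and the one with the fewest was con-5 (3). Without HF-4 the number of genes that fell was 15 in place of 27.

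**Figure D2:**
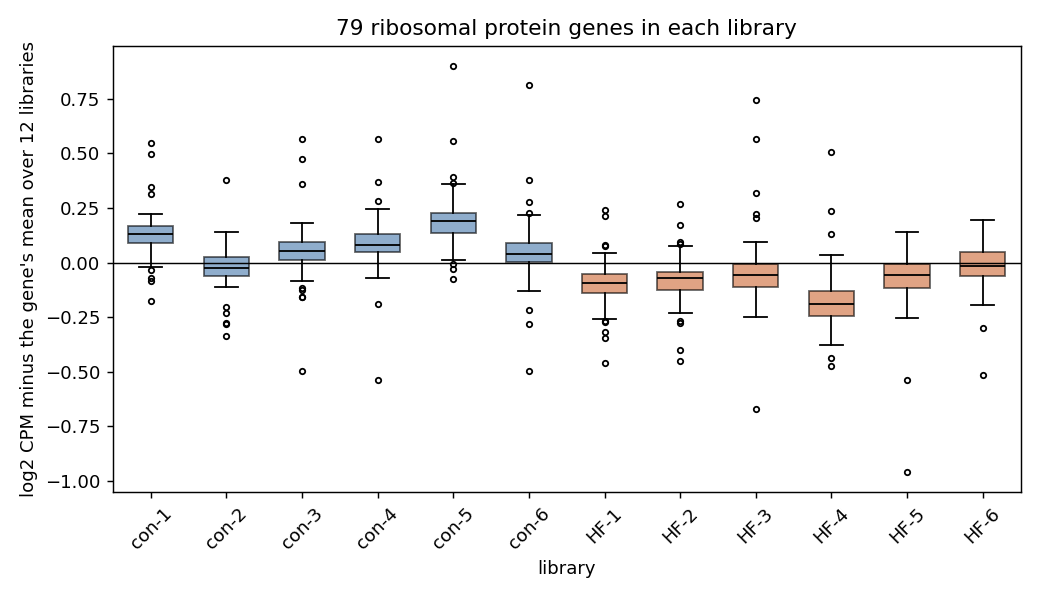
Box plots of log2 CPM minus each gene's mean over 12 libraries (vertical axis) for 79 ribosomal protein genes in each library, with boxes from the lower to the upper quartile, the median as a line, whiskers to 1.5 times the box height and single genes beyond as circles. The con-named libraries (blue) have medians from -0.02 to 0.19 and the HF-named libraries (orange) from -0.19 to -0.01, so that con-2 lies below HF-6.

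Among the large-subunit genes, 16 of 44 fell, with a median log2 fold change of -0.16. The change of smallest p was that of Rpl18 (ENSMUSG00000059070, chromosome 7, 45715457 to 45720836, GRCm38). Its lowest, median and highest levels were 150, 157 and 167 CPM in con-named libraries, against 125, 133 and 137 CPM in HF-named ones. The highest HF-named library lay below the lowest con-named one (log2 fold change -0.26, SE 0.04, edgeR adjusted p = 0.00193).

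The largest fall was in Rpl35a (ENSMUSG00000060636, chromosome 16, 33056453 to 33060189), a gene mutated in some patients with Diamond-Blackfan anaemia, an inherited failure of red cell production. It had 49.1, 54.4 and 59.0 CPM in con-named libraries, against 40.6, 42.9 and 48.1 CPM in HF-named ones, without overlap (-0.29, SE 0.06, edgeR adjusted p = 0.0048). Rpl27 went from 115, 124 and 130 CPM to 94.6, 102 and 109 CPM, also without overlap (-0.27, SE 0.05). Rpl34 had 62.8, 65.9 and 68.7 CPM against 48.6, 57.0 and 59.1 CPM, again without overlap (-0.24, SE 0.05).

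Rpl8, whose protein lies close to the peptidyl transferase centre where peptide bonds form, had 253, 256 and 296 CPM in con-named libraries, against 211, 223 and 231 CPM in HF-named ones (-0.26, SE 0.05). Rpl12, a protein of the stalk base where translation factors bind, had 108, 114 and 127 CPM against 89.1, 97.7 and 104 CPM (-0.24, SE 0.05). In both genes the groups were apart. Rpl31, at the exit of the peptide tunnel, had 114, 124 and 150 CPM against 94.8, 106 and 123 CPM, and 4 of its 6 HF-named libraries lay below the con-named range (-0.25, SE 0.07).

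Rpl11 joins Rpl5 and the 5S ribosomal RNA in a particle that, when free of ribosomes, binds MDM2, the ligase that holds p53 low. It had 137, 146 and 159 CPM in con-named libraries, against 111, 125 and 133 CPM in HF-named ones, without overlap (-0.24, SE 0.05, edgeR adjusted p = 0.0084). Its partner Rpl5 did not pass, with 256, 285 and 306 CPM against 244, 253 and 266 CPM (-0.15, edgeR adjusted p = 0.0545). Mdm2 itself rose by 0.18 on the log2 scale (SE 0.05, edgeR adjusted p = 0.0252), the only call among 13 genes of ribosome quality control and free ribosomal protein sensing, where 13.3% of all genes were called. With library totals Mdm2 did not pass (0.07, edgeR adjusted p = 0.429), and it lost its call in 5 of the 12 fits with a library left out.

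Rpl29 and Rpl36 completed the large-subunit genes among the 12 largest falls. Rpl29 had 57.5, 65.2 and 84.9 CPM against 52.3, 56.2 and 58.1 CPM, with the groups touching in 2 HF-named libraries (-0.27, SE 0.08). Rpl36 had 79.1, 85.8 and 96.5 CPM against 69.1, 72.5 and 80.3 CPM, with 1 HF-named library inside the con-named range (-0.23, SE 0.06). Rpl29 and Rpl31 each lost their call when certain single libraries were left out (4 of 12), with an edgeR adjusted p of up to 0.0682 and 0.0660. The other large-subunit genes that fell were Rpl6, Rpl9, Rpl13, Rpl14, Rpl32 and Rpl36a.

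Among the small-subunit genes, 10 of 32 fell, with the same median of -0.16. Rps16, whose tail reaches the transfer RNA in the decoding centre, had 106, 112 and 132 CPM in con-named libraries, against 84.0, 94.97 and 102 CPM in HF-named ones (-0.27, SE 0.06). Rps19, the gene most often mutated in Diamond-Blackfan anaemia, had 92.8, 102 and 115 CPM against 81.9, 89.3 and 90.8 CPM (-0.22, SE 0.06). The groups did not overlap in either gene. Among the other small-subunit genes that fell were Rps7, Rps13, Rps14, Rps15, Rps18 and Rpsa.

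Of the 3 genes of the stalk, the flexible arm that recruits elongation factors, only Rplp2 fell. It had 114, 128 and 134 CPM against 100.5, 111 and 125 CPM (-0.18, SE 0.05, edgeR adjusted p = 0.0395). Its call held in 2 of the 12 fits with a library left out, and not with the length and GC offset (-0.09, edgeR adjusted p = 0.251). Rplp0 (536, 563 and 588 against 513, 539 and 578 CPM, -0.06) and Rplp1 (224, 252 and 261 against 206, 220 and 251 CPM, -0.13) did not pass, and their groups overlapped. Whether the stalk genes differ from one another in their change was not tested.

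Over the 79 genes, 15 had all 6 HF-named libraries below the con-named range and 0 had them all above it, where all genes tested give 1.95% below and 3.41% above. Of the 15, all but Rps3 (-0.13, edgeR adjusted p = 0.0559) were among the 27 that fell. Of the 27, 15 kept their call in all 12 fits with a library left out. Across 25 fits in all, 8 genes were called in every one (Rpl11, Rpl12, Rpl18, Rpl27, Rpl34, Rpl35a, Rps16 and Rps18), and 8 were called in none.

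**Figure D3:**
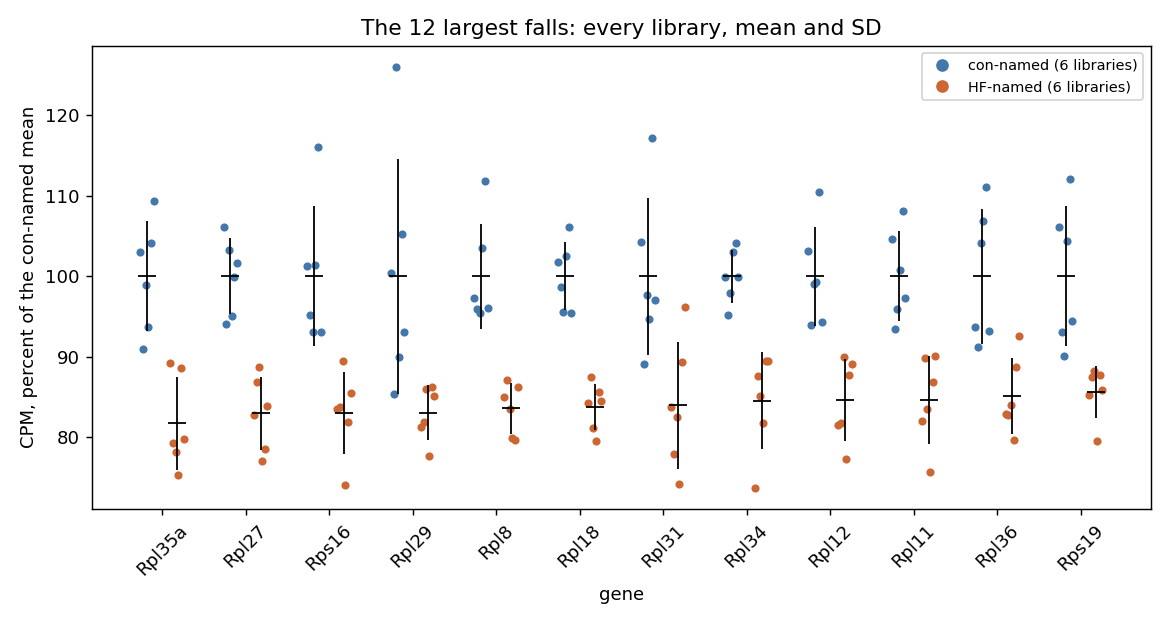
CPM as a percent of the con-named mean (vertical axis, which does not start at 0) for the 12 ribosomal protein genes with the largest falls, with each of 6 con-named libraries as a blue point, each of 6 HF-named libraries as an orange point, and the mean and SD as bars. The groups are apart for Rpl35a, Rpl27, Rps16, Rpl8, Rpl18, Rpl34, Rpl12, Rpl11 and Rps19, and overlap for Rpl29, Rpl31 and Rpl36.

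The sequences at the transcription starts were searched for the TOP tract, which is known for its role in translation. Whether it has a part in the transcript levels was not tested. Windows around RefSeq starts (GRCm38.p6) were matched for 57 of the 79 genes. A tract was counted where a C, followed by at least 5 bases that are each C or T, began within 15 bases of the start on the gene's strand. By this search 34 of 57 (59.6%) held one, against 30.1% of 10631 genes tested that had a window. The share was 12 of 20 (60%) among genes that fell and 22 of 37 (59.5%) among those that did not pass. The windows below run from 30 bases before to 20 bases after the start, 5′ to 3′ on the gene's strand, with the tract in capitals. They show genes that fell with a tract (Rpl35a, Rpl18, Rpl31, Rpl12), genes that fell with no match (Rpl27, Rps16), a gene with a tract that did not pass (Rps27), and genes with neither (Rpl22, Rpl3l).
Rpl35a, chr16:33056452-33056501, plus strand: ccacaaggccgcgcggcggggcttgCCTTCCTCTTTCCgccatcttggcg
Rpl18, chr7:45718041-45718090, plus strand: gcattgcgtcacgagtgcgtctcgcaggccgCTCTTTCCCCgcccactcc
Rpl31, chr1:39367821-39367870, plus strand: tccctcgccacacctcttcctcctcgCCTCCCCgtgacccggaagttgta
Rpl12, chr2:32961682-32961731, plus strand: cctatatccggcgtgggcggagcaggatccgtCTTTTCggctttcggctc
Rpl27, chr11:101442215-101442264, plus strand: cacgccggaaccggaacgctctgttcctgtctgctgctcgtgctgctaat
Rps16, chr7:28350659-28350708, plus strand: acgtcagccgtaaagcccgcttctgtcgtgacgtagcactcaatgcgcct
Rps27, chr3:90213629-90213678, minus strand: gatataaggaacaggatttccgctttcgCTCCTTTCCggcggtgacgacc
Rpl22, chr4:152325696-152325745, plus strand: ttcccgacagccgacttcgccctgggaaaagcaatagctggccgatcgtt
Rpl3l, chr17:24727796-24727845, plus strand: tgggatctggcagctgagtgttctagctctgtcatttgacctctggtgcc

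A match is a run of letters near an annotated start, and a start that RefSeq places some bases away moves it in or out of reach. In windows from 250 bases before to 50 after the start, on both strands, CCGGAAG (a core of ETS-family and GABP binding sequences) was found in 42.1% of the 57 genes and 19.1% of genes tested, AAGATGGC (a YY1 core) in 8.77% and 5.00%, TATAAA in 10.5% and 9.20%, and CACGTG (the E-box bound by MYC) in 10.5% and 11.6%. CCGGAAG was held by 8 of 20 genes that fell and 16 of 37 that did not pass, so the shares holding this sequence or the tract were close between genes that fell and genes that did not pass.

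Levels were compared between genes only per length, in the authors' FPKM (fragments scaled to exon length and library size). This scale followed library totals and not TMM: the median log2 ratio of group means was -0.28 over the 79 genes and -0.13 over all genes tested. The highest were Rplp1 at 514 ± 35.99 FPKM in con-named libraries, against 434 ± 44.7 in HF-named ones (SD, n = 6 each), and Rplp0 at 353 ± 7.27 and 313 ± 19.6. Rps2, Rps15 and Rpl36 followed at 328 and 281, 314 and 253, and 236 and 185. The lowest were Rps10 at 1.06 ± 0.169 and 0.874 ± 0.179, Rpl13a at 2.93 ± 0.463 and 2.57 ± 0.415, and Rpl21 at 8.41 ± 2.94 and 6.44 ± 0.724, followed by Rpl35a (15.9 and 12.0) and Rps15a (18.6 and 16.0). Rps10 is also the gene with the largest share of reads in copies, given below, and Rpl13a shares 35.4% of its exon bases with Gm45713 on the same strand. The order by FPKM depends on the exon length used as well as on the counts. In con-named libraries Rpl35a and Rps15a, among the lowest by FPKM, had means of 53.9 and 113 CPM. Rpl36, among the highest by FPKM, had a mean of 86.8 CPM there. Rpl35a had the largest fall among called genes, while Rps2, among the highest by FPKM, did not pass.

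**Figure D4:**
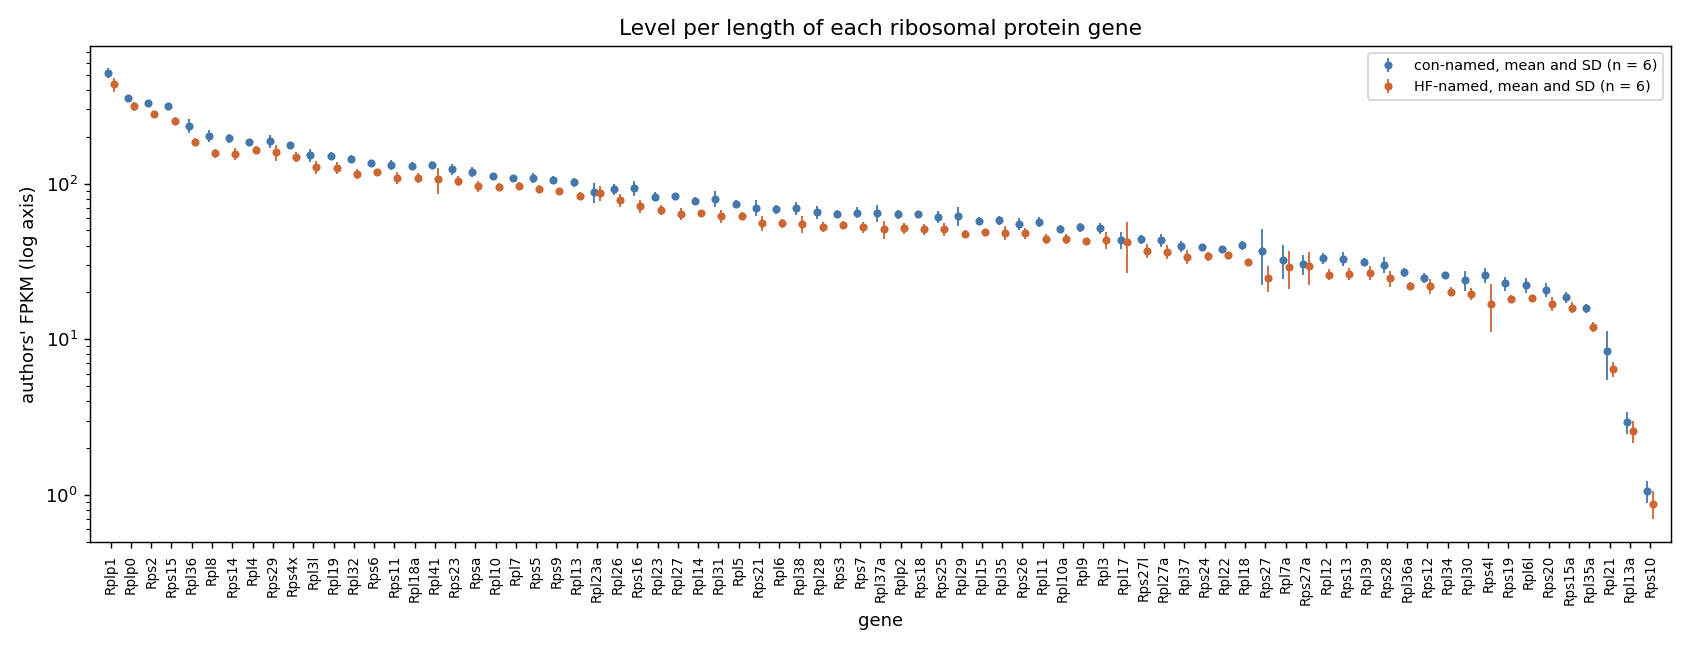
The authors' FPKM (log axis) of 77 of the 79 ribosomal protein genes in the con-named (blue) and HF-named (orange) libraries, as mean and SD of 6 libraries each, ordered by level from Rplp1 (514 and 434) to Rps10 (1.06 and 0.874). Most points lie between 10 and 200 FPKM, and the HF-named mean lies below the con-named mean for every gene drawn, on a scale where the median of all genes tested is also lower (-0.13 in log2).

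Near-identical copies took part of the reads of some genes. Only copies named after their parent (with -ps, or Rps27rt and Rpl37rt) were matched, so copies under other names are not counted. In the counts, 4 pseudogene copies of Rps10 together had 92.7% of the counts of copies and parent, and the corresponding share was 71.0% for Rpl17, 43.8% for Rps27, 35.3% for Rpl21 and 32.1% for Rpl14. The reads of a parent and its copies cannot be told apart with certainty, so the values of these genes are uncertain. In Rps27, which is a zinc-finger protein of the small subunit, the parent row had 20.9, 37.1 and 56.5 CPM in con-named libraries, against 20.9, 26.8 and 32.0 CPM in HF-named ones (-0.45, SE 0.20, edgeR adjusted p = 0.142). Its copies had 7.79, 23.6 and 40.4 CPM against 20.4, 24.2 and 36.5 CPM.

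Parent and copies of Rps27 together had 52.6, 62.0 and 64.3 CPM in con-named libraries, against 48.5, 52.7 and 57.4 CPM in HF-named ones. The SD of the con-named libraries was 13.9 CPM for the parent, 11.4 CPM for the copies and 4.20 CPM for their sum. With the copies named after each parent summed into it, a fit chosen after the data were seen, Rps27 fell (-0.20, edgeR adjusted p = 0.0261) and 29 of the 79 genes fell in place of 27 (5.1% of all genes). In that fit the log2 fold change of Rpl17 was -0.13 (edgeR adjusted p = 0.121). Without the summing it was 0.05 and did not pass.

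With TMM, 3 genes had a positive log2 fold change, and none passed. These signs depend on the scaling: with library totals all 79 were negative (Rpl23a -0.02, Rps27a -0.05, Rpl17 -0.06), and with the length and GC offset 72 were. Rpl23a had 52.1, 75.1 and 78.1 CPM in con-named libraries, against 68.9, 76.2 and 85.8 CPM in HF-named ones (0.10, SE 0.08), and 59.7% of its exon bases overlap Tlcd1 on the opposite strand. The strand setting of the counting is not given in the sources used here, so its value is uncertain. Rps27a, which encodes a small-subunit protein fused to ubiquitin, had 49.6, 55.4 and 75.7 CPM against 48.1, 55.3 and 82.6 CPM (0.06, SE 0.13). Among the genes named, Rpl31 shares 25.3% of its exon bases with Tbc1d8 on the opposite strand.

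Tissue-restricted and duplicated versions were read as ratios within each library, which no scaling enters. Rpl3l (ENSMUSG00000002500, chromosome 17, 24727820 to 24736143), the muscle version of Rpl3, had 199, 244 and 285 CPM in con-named libraries, against 190, 216 and 258 CPM in HF-named ones (-0.15, SE 0.08, edgeR adjusted p = 0.225). Rpl3 had 147, 157 and 166 CPM against 125, 148 and 159 CPM (-0.13, edgeR adjusted p = 0.182). Per length, Rpl3l stood above Rpl3 in all 12 libraries, with an FPKM ratio of 2.996 ± 0.412 in con-named libraries, against 2.98 ± 0.562 in HF-named ones (SD, n = 6 each). The difference in the log2 ratio was -0.02 (SE 0.14, exact permutation test, two-sided, p = 0.905, adjusted over 5 pairs 0.905).

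Rps4l, the copy of Rps4x on chromosome 6, had the lowest fold change of the 79 genes. Its levels were 19.5, 23.96 and 27.1 CPM in con-named libraries, against 9.87, 16.2 and 23.1 CPM in HF-named ones, with 4 HF-named libraries below the con-named range (-0.51, SE 0.17, edgeR adjusted p = 0.0583). The Rps4l to Rps4x log2 ratio differed by -0.43 (SE 0.22, exact permutation p = 0.106, adjusted 0.265). The ratio of Rpl22l1 to Rpl22 differed by -0.22 (SE 0.08, exact permutation p = 0.0260, adjusted 0.130), that of Rps27l to Rps27 by 0.25 (SE 0.24, p = 0.338, adjusted 0.563, by the same exact test) and that of Rpl7l1 to Rpl7 by 0.02 (SE 0.05, p = 0.732, adjusted 0.905, by the same exact test). None of the 5 ratios passed after adjustment. Rpl10l, Rpl39l and Rpl36al, with 1, 17 and 34 counts over all libraries, were too low for a ratio. Rpl22 was close to level in both groups, at 102, 107 and 113 against 102, 107 and 109 CPM (-0.01, SE 0.04).

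Within groups the genes varied together. With group means removed, the median Pearson r over pairs of the 79 genes was 0.45, and 87.9% of pairs were positive, over 12 libraries that share their scaling. The median r of a gene with the mean of the others was 0.70. Rpl30 stood apart at -0.58, and Rps27a (-0.15), Rps4l (-0.14) and Rpl22 (-0.13) were also negative. For Rpl30, 9 copies named after it held 9.08% of the counts of copies and parent. With copies summed into the parent Rpl30 fell (-0.20, edgeR adjusted p = 0.0262), and its r was not taken on those sums. These are descriptions of 12 libraries, and the same values were not taken for other genes. Whether they are particular to ribosomal protein genes was not tested. Likeness to the mean of the ribosomal protein genes was taken on log2 CPM over the 12 libraries with group means kept. Its r therefore includes the difference between groups and is not comparable to the values above. The 5 closest of 13616 other genes were Ndufa2 (r = 0.97), Ndufb7 (0.96), Fau (0.96), Pfdn5 (0.95) and the pseudogene Gm9794 (0.94).

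Exon length was taken as all annotated exons of a gene, joined over its transcripts, so it can exceed the length of a message. By this measure the ribosomal protein genes are short, with a median of 1770 bases (383 to 6270) against 4168 bases over all genes tested. Shorter genes were lower in general. Over all other genes, the median log2 fold change in 5 equal bins of exon length was -0.08, -0.06, -0.02, 0.02 and 0.06 from short to long. The ribosomal protein genes in the same bins had medians of -0.16 (50 genes), -0.18 (20), -0.22 (7) and -0.10 (2), with none in the longest. They are also abundant, with a median of 118 CPM against 13.4 CPM over all genes tested. In the shortest bin, of 982 other genes with at least 10 CPM, 13.5% fell and 70.8% had a negative log2 fold change. Their median was -0.08, and in 49 of them all HF-named libraries lay below the con-named range. With exon length and GC content entered as an offset, 11 of the 79 fell, where 3.4% of all genes fell, and the median was -0.10 against 0.00 over all genes. All 11 were among the 27. Of the 12 largest falls, Rpl8, Rpl29, Rpl31 and Rpl36 did not pass with the offset (-0.12, -0.13, -0.19 and -0.13), while Rpl18 (-0.23, edgeR adjusted p = 0.00304) and Rpl35a (-0.28, edgeR adjusted p = 0.00789) did. Across the 79 genes, log2 fold change went with exon length at r = 0.09, with GC content at r = -0.35 and with level at r = 0.15. The part of RNA integrity or fragment selection was not tested.

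**Figure D5:**
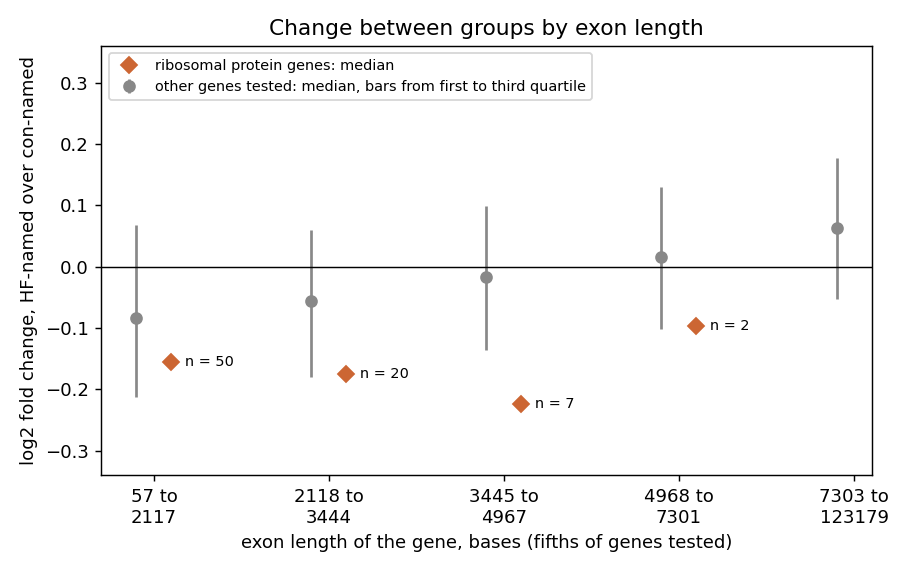
The log2 fold change (HF-named over con-named, vertical axis) in 5 equal bins of exon length (all annotated exons of a gene joined, in bases, horizontal axis), with the median of other genes tested as grey circles, bars from their lower to upper quartile, and the median of the ribosomal protein genes in each bin as orange diamonds with their number. The orange medians lie below the grey ones in all 4 bins that hold ribosomal protein genes, and the grey medians go from -0.08 to 0.06.

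Some ribosomal genes lie outside the symbol rule. Of these Fau, a ubiquitin-like protein fused to a small-subunit protein, fell from 83.2, 87.6 and 99.5 CPM to 65.3, 74.1 and 78.8 CPM, without overlap (-0.27, SE 0.05, edgeR adjusted p = 0.00543). With the length and GC offset it did not pass (-0.13, edgeR adjusted p = 0.0677). Rack1, a scaffold on the small subunit, at -0.14 and Rps3a1 at -0.11 did not pass.

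Genes that act on ribosomal protein messages or build ribosomes are read against 8.28% of all genes higher and 5.05% lower. Of 22 genes of mTORC1 and TOP control, 7 rose and 0 fell, with a median log2 fold change of 0.06. The smallest p among them, though not the largest change, was that of Larp4, a poly-A binding partner that stabilises messages. It had 44.5, 47.5 and 50.9 CPM in con-named libraries, against 57.0, 59.6 and 69.0 CPM in HF-named ones (0.37, SE 0.06, edgeR adjusted p = 0.00139). Mtor, the kinase, had 52.3, 63.9 and 65.4 CPM against 66.7, 80.1 and 88.2 CPM (0.37, SE 0.07, edgeR adjusted p = 0.00338). Rptor, the scaffold of mTORC1, had 38.7, 41.1 and 46.1 CPM against 46.4, 49.4 and 52.7 CPM (0.25, SE 0.05). The groups were apart in all 3. Among the others that rose were Tsc1 and Deptor, which restrain mTORC1, and Larp1. With the length and GC offset, 5 of the 22 rose and 0 fell. Rptor did not pass with library totals (0.13, edgeR adjusted p = 0.112). Longer genes rose more often in general: 533 of 2980 other genes rose in the longest bin of exon length, and 88 of 2931 in the shortest.

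In the next 3 lists the calls were few, and nothing is read from their shares. Of 18 other genes with TOP messages, Naca (0.28) and Eif4b (0.21) rose and Eef1a1 (-0.25, the main elongation factor) fell, with a median of -0.03. Of 38 ribosome biogenesis genes, 4 rose, among them Tsr1 (0.36) and Utp20 (0.23), both processing factors of the small subunit, and Eif6 (-0.24), which keeps free large subunits apart from small ones, fell. Their median was 0.02. Of 14 genes of RNA polymerase I, which transcribes ribosomal RNA, Rrn3 (0.17) rose and Polr1e (-0.30) and Polr1c (-0.26) fell. These directions depend on the scaling. With library totals in place of TMM, the all-gene median log2 fold change moved from -0.01 to -0.13, and 4 mTORC1 and TOP control genes rose and 3 fell, 1 biogenesis gene rose and 7 fell, 0 other TOP genes rose and 9 fell, and 0 RNA polymerase I genes rose and 3 fell. With the length and GC offset, Eef1a1, Eif6, Utp20 and Polr1c did not pass (edgeR adjusted p = 0.0792, 0.107, 0.0646 and 0.107). With a library left out, Eef1a1 lost its call in 6, Eif4b in 8, Rrn3 in 6, Polr1c in 7, Polr1e in 3 and Utp20 in 2 of 12 fits, and no RNA polymerase I gene was called without con-5 or without HF-4. With the replicate block, no other TOP or RNA polymerase I gene was called, and neither was Mdm2. Under those totals 70 of the 79 ribosomal protein genes fell, where 17.1% of all genes did, with a median of -0.27. DESeq2 called 41 of the 79 lower, where 6.09% of all genes were, and with the replicate number as a block 14 fell, where 2.53% of all genes did.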

How the data were processed

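Poly-A RNA of mouse ventricle was sequenced by the authors in 12 libraries. The deposited table holds raw read counts per gene and, per length, the authors' FPKM. The submitters' processing notes name HISAT2 2.0.5, HTSeq 0.9.1, cutadapt 1.15 and the build mm10. The strand setting and the annotation release are not stated there. A further table of the authors has a mean signal per group (counts scaled by size factors), p-values before and after adjustment, and log2 fold changes.

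Groups follow the library names, which also name the count columns. Counts were tested with edgeR 4.0.16 (R 4.3.3, limma 3.58.1): filterByExpr, TMM, quasi-likelihood test with group as the only term, two-sided, Benjamini-Hochberg adjustment over 15114 genes, threshold 0.05. CPM are counts over TMM-adjusted library sizes. The depth puts 3 counts at 0.142 to 0.217 CPM. Paralog ratios were tested by exact permutation over 924 splits. Exon lengths, GC content and overlaps came from GENCODE M21 (GRCm38), and promoter windows from RefSeq. Steps were tested on simulated data.

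The genes named were the 12 largest changes in each direction among called genes, the 5 highest and 5 lowest by FPKM, the paralog pairs, from each pathway list those with the smallest p (3 where at least 3 pass, otherwise 1), and the genes next to the count limit. Others were named after their values were seen. Some genes are not reported here by name. The genes and lists were chosen with earlier results of these data known. Alternatives were other scalings (RLE size factors, library totals, TMM without ribosomal protein genes), other filters, a replicate block, no mitochondrial or unnamed features, a length and GC offset (splines, 5 degrees of freedom), each library left out, limma-voom and DESeq2 1.42.0.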

Additional observations from a re-analysis of the deposited data

Results flagged for a closer look

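Single libraries stood far from the other 5 of their group in 10 of 158 gene and group combinations of the ribosomal protein genes, where chance gives about 1 in 20. In the HF-named libraries, HF-3 was high for Rpl7a (78.9 CPM, the others 43.3 to 53.6) and for Rpl17 (54.2 CPM, the others 23.9 to 34.5). HF-4 was low for Rps19 (81.9 CPM, the others 87.9 to 90.8) and Rpl23 (109 CPM, the others 124 to 131), and high for Rpl30 (71.3 CPM, the others 56.9 to 61.7). HF-6 was high for Rpl39 (46.7 CPM, the others 36.4 to 40.0). In the con-named libraries, con-5 was high for Rps16 (132 CPM, the others 106 to 115), con-6 for Rps27a (75.7 CPM, the others 49.6 to 58.7) and con-2 for Rpl30 (84.7 CPM, the others 63.9 to 68.9), and con-3 was low for Rpl23a (52.1 CPM, the others 71.8 to 78.1). Rpl30 was high in con-2 and HF-4, which within their groups had the most ribosomal protein genes low. The number of flags was close to the chance rate given, so nothing is read from this or from other single flags. Copies of Rpl30 also held counts, as given above.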

How the results depend on the processing

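No ribosomal protein gene rose under any alternative. The number that fell was 27, and 70 with library totals, 41 with DESeq2, 14 with the replicate number as a block, 11 with the length and GC offset, and 15 to 39 with each library left out (15 without HF-4). Of all genes, 1252 genes rose and 764 fell. With library totals 483 rose and 2582 fell, which turned the share of calls that were higher from 62.1% to 15.8%, and the ribosomal median went from -0.16 to -0.27. With the block 748 rose and 383 fell, with the offset 506 fell, and with each library left out 836 to 1581 rose and 500 to 969 fell (500 without HF-4). Leaving out each library gave a ribosomal median of -0.18 to -0.14 and a difference in share of counts of -0.213 to -0.172 percentage points. Of the 79, 76 were negative, 79 with library totals, 72 with the offset and 75 to 77 under every other alternative. The sign turned for Rpl23a (-0.0171), Rps27a (-0.0473) and Rpl17 (-0.0614) with library totals, for Rplp0 (0.0163), Rpl22 (0.0271), Rps6 (0.0406) and Rpl7a (0.0185) with the offset, for Rpl17 (-0.129) with copies summed and, with single libraries left out, for Rpl22 (-0.0320 to 0.00681) and the log2 ratios of Rpl3l to Rpl3 (-0.0957 to 0.0523) and Rpl7l1 to Rpl7 (-0.00312 to 0.0474). Other genes of the 79 also turned sign with limma-voom or with a library left out, and these are not listed. The ratio of Rps4l to Rps4x, with single libraries left out, ran from -0.53 to -0.30, with an unadjusted exact permutation p of 0.0433 without HF-1 and 0.0346 without HF-2. Of the other comparisons of named genes with an alternative, 1005 kept direction and side of the threshold, 88 lost the call and 31 gained it. Libraries of the same number share only a number: their deviations correlated at -0.161 to 0.0900, and 2 of 6 matched their own number best. The causes were not tested.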
